A study of Mus musculus with 3 samples.

Results

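Transcripts annotated as targets of nonsense-mediated decay were examined in the cytosolic RNA of mouse macrophages. They were chosen by 2 criteria, the GENCODE M21 biotype nonsense_mediated_decay and a mean of 10 or more expected counts over the 3 libraries in the alignment-derived transcript tables. An expected count is the estimated number of reads from a transcript, with reads that fit several transcripts split between them, so it need not be whole. The criteria selected 2106 transcripts of 1689 genes, out of 7186 transcripts of that biotype (29.3%), 33984 transcripts of any biotype at the same threshold and 141862 transcripts in all. Since the counts chose these transcripts, their counts, and the shares of genes computed from the same counts, are given as descriptions. The transcripts nearest the threshold were Zfp280d-219 and Trip11-205 on the inside, with means of 10.04 and 10.06 expected counts, and Pip5k1c-209 and Fuk-204 on the outside, with means of 9.97 and 9.96.

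The study sequenced total RNA, depleted of ribosomal RNA, from the cytosolic fraction of macrophages grown from bone marrow. The 3 libraries form 1 group. Its cells are primary C57BL/6J macrophages exposed to 100 ng/ml of lipid A for 12 h, kept for 12 h after washing, and collected at 0 min of a second lipid A stimulation. Lipid A is the part of bacterial lipopolysaccharide that activates TLR4. No untreated group and no nuclear fraction of these cells was analysed here, and the labels record neither sex nor age. The labels number the libraries as biological replicates of separate biosamples but give them 1 donor identifier, and it is not stated if each came from its own animal, so the spread between them may be technical.

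Nonsense-mediated decay is the pathway that removes mRNAs whose reading frame ends too early. After splicing, a protein complex is left just upstream of each exon junction, and a ribosome that stops well before the last of these complexes leads, through UPF1 and the SMG proteins, to degradation of the mRNA. The annotation gives the biotype to models whose stop codon lies far enough upstream of the last junction, so the name is a prediction from structure and not a measurement of decay. In macrophages as in other cells, alternative splicing coupled to this pathway is known to set the levels of many RNA-binding proteins.

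Gene rows held 28981177, 53119939.8 and 46783133 expected counts in replicates 1, 2 and 3. The 14 macrophage markers examined were all at 1 TPM (a transcript's abundance once its length is taken into account) or more in every library. Of 29 markers of other blood, stromal and endothelial cells 4 reached that level and 8 were at 0, and their summed level was 16.6, 15.7 and 17.1 TPM. Replicate 3 stood apart in RNAs that stay in the nucleus. Malat1 was at 158, 91.05 and 1343 TPM and Neat1 at 16.8, 10.4 and 91.4 TPM in replicates 1, 2 and 3, and transcripts annotated as retained_intron held 1.19%, 1.13% and 2.15% of gene counts. In bulk RNA of this kind, fewer cells with a transcript and less of it per cell cannot be told apart.

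The sequences below show how the members with the most counts reach an early stop. Each line is the last 60 bases of the annotated coding sequence of a member, 5′ to 3′, from the GENCODE M21 transcripts on GRCm38 (mm10), with the stop codon in capitals. Under all but Mx1-205 stands the protein_coding transcript of the same gene with the most counts, from the same first base, with capitals from the base where its path parts from that of the member.
Mx1-205: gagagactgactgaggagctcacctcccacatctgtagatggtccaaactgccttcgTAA
Oasl2-205: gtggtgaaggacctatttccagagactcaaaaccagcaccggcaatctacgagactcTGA
Oasl2-201: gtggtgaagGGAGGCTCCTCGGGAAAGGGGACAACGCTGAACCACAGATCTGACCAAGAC
Ppia-201: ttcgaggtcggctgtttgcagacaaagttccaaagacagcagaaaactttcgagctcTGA
Ppia-202: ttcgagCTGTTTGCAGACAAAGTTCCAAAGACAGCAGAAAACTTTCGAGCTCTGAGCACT
Ctsh-202: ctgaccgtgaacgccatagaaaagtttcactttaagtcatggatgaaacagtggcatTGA
Ctsh-201: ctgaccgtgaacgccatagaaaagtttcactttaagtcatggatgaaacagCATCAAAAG
Ostf1-205: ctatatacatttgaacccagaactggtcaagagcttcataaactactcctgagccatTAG
Ostf1-204: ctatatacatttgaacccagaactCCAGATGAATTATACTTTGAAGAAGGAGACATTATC
In Oasl2-205 the stop lies at chr5:114901288-114901290 on the plus strand, in exon 2 of 5. An exon of 289 bases is left out, a length that is not a multiple of 3, so the exon that follows is read in another frame. In Ppia-201 (stop at chr11:6418241-6418243, plus strand, exon 3 of 5) a splice site is moved by 5 bases, and the stop is spelled by bases that Ppia-202 also holds in its coding sequence. In Ctsh-202 (stop at chr9:90062723-90062725, plus strand, exon 3 of 11) an exon of 106 bases is left out. In Ostf1-205 (stop at chr19:18598954-18598956, minus strand, exon 3 of 11) the stop lies in an extra exon of 77 bases, outside the exons of the gene's protein_coding transcripts. In Mx1-205 (stop at chr16:97451528-97451530, minus strand, exon 9 of 11) no line is shown for the coding transcript, since the first base shown lies outside the exons of Mx1-202. Mx1-205 holds 278 bases in 2 adjacent exons that Mx1-202 lacks.

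All members but 2 had an annotated stop codon. In 2100 of the 2104 the stop lay 50 or more bases before the last exon junction, as the definition of the biotype asks. Over all 2104 the distance ran from 29 to 12430 bases with a median of 495. Among 19979 protein_coding transcripts with a stop codon at the same count threshold, 88 (0.440%) had such a stop. The stop was TGA in 1172 members (55.7%), TAA in 481 and TAG in 451. In 1216 members it was a stop of their own within exons that protein_coding transcripts also use, in 690 it lay outside those exons, in 172 it was the stop of a protein_coding transcript with a further junction behind it, and 26 belonged to genes with no protein_coding transcript. These classes, and the splicing classes that follow, were set after the values had been seen.

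Each member was compared with the protein_coding transcript of its gene that had the most expected counts, over the span both models cover. Such a transcript was found for 2076 members, and 1309 differed from it in exactly 1 place. In 506 of these a splice site was moved, in 373 an exon or several adjacent exons were left out, in 317 an exon or several adjacent exons were added, in 46 an intron was removed from within an exon of the coding transcript, and in 30 an intron was kept. Of the 373 with exons left out, 367 (98.4%) lost a number of bases that is not a multiple of 3. For the 317 with added exons the figure was 220 (69.4%). An added exon can end the reading frame by a stop of its own, whatever its length. The median over members of the mean share of the gene was 5.23% for moved splice sites, 4.94% for exons left out, 3.45% for added exons, 7.73% for introns removed from within an exon and 1.93% for kept introns. The quartiles over all members were 1.48% and 14.1%, and differences between the classes were not tested.

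**Figure D1:**
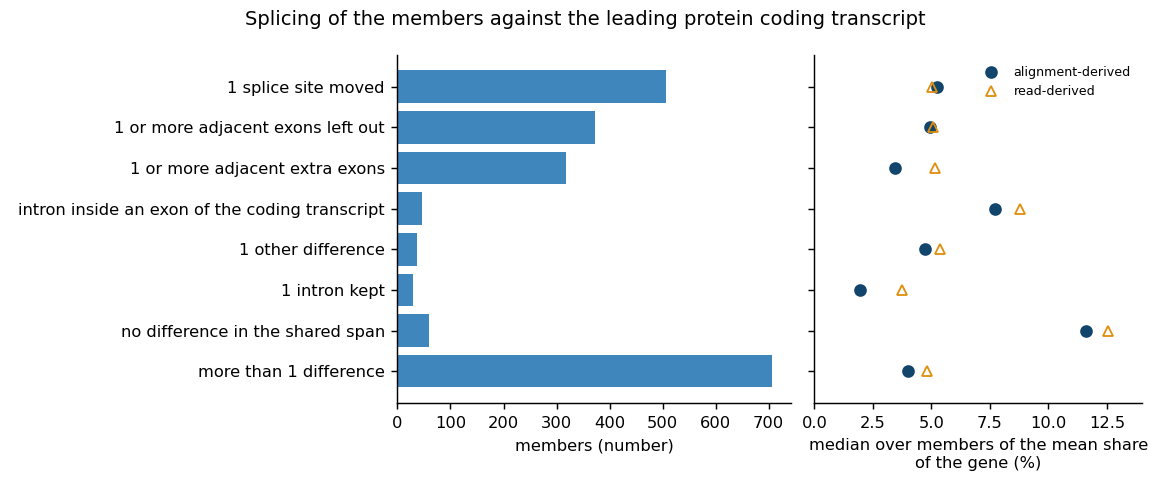
Number of members (left axis, bars) and median over members of the mean share of the gene in percent (right axis; filled circles from alignment-derived expected counts, open triangles from read-derived est_counts), by how the member is spliced against the leading protein_coding transcript. Moved splice sites (506), exons left out (373) and added exons (317) were the most frequent single differences, and 706 members had more than 1.

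Together the members held 1.16%, 1.16% and 1.23% of all expected counts on genes in replicates 1, 2 and 3, or 1.18% ± 0.0411 (SD, n = 3). By TPM, which counts molecules rather than reads, they held 0.481%, 0.452% and 0.515% of the total of all rows that name a gene. Protein_coding transcripts at the same threshold held 28.9%, 25.3% and 28.8% of that total. With the total taken over transcripts of protein-coding genes the mean was 1.61% by TPM and 1.33% by expected counts, so which scale gave the higher value depended on the total. In the read-derived tables, a second quantification of the same reads, they held 1.19%, 1.16% and 1.15% of est_counts. The 3 libraries thus lay within a narrow range on both count scales. Protein_coding transcripts at the same threshold held 87.9%, 84.3% and 84.1% of expected counts. Without the threshold, all nonsense_mediated_decay transcripts held 1.18%, 1.17% and 1.25%, so the transcripts of this biotype below it added little.

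Within its gene a typical member was a minor transcript. The median share of the gene's expected counts was 3.74%, 4.02% and 4.99% in replicates 1, 2 and 3 (mean 4.25% ± 0.655, SD, n = 3). The median was 0.415%, 0.336% and 2.76% for retained_intron transcripts, 1.85%, 2.23% and 3.14% for processed_transcript and 43.8%, 44.6% and 42.1% for protein_coding transcripts. On average over libraries 397 members were under 1% of their gene, 1016 between 1% and 10%, 581 between 10% and 50%, and 112 at 50% or more. By molecules, 548 members reached 1 TPM in every library, and the median member was at 0.480, 0.440 and 0.610 TPM. The threshold on the mean let in 274 members with 0 expected counts in at least 1 library, and 1454 had 10 or more in every library.

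**Figure D2:**
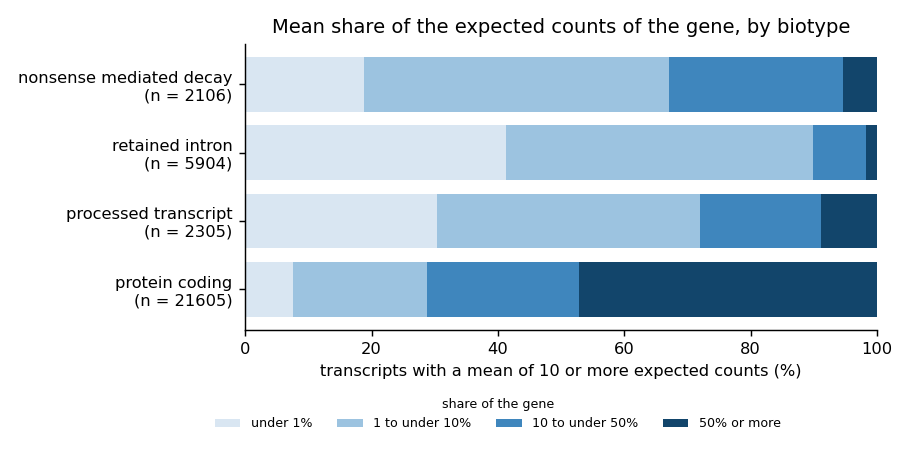
Percent of transcripts (horizontal axis) whose mean share of the expected counts of their gene falls in each of 4 ranges, for 4 biotypes with a mean of 10 or more expected counts. Of the nonsense_mediated_decay transcripts 18.9% were under 1% of their gene and 5.32% at 50% or more, against 7.56% and 47.1% of protein_coding transcripts.

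A minority of members led their gene. In 170 cases the member had more expected counts than any other transcript of the gene, 145 of them in genes with a protein_coding transcript, and 142 of the 170 also led by est_counts. Counted by gene, members together held 50% or more in 135 genes on average and in every library in 107, and 111 of the 135 had a protein_coding transcript. Most genes had 1 member (1368). There were 2 members in 247 genes and 3 or more in 74, with the most (8) in Tmem234, a gene named here after its values were seen.

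The 10 members with the most counts came from genes of interferon responses, RNA binding, protein folding, proteolysis and immune receptors, and from Ostf1. Mx1-205 had 18318, 18113 and 26097 expected counts in replicates 1, 2 and 3. It held 72.2%, 67.9% and 71.6% of its gene, Mx1, an interferon-induced GTPase that blocks influenza virus and of which C57BL/6 mice are known to carry a defective allele. Its shares were close in the 3 libraries by expected counts. In the read-derived tables they were 59.9%, 56.6% and 36.0%, with replicate 3 below the others. There, another member of the same gene, Mx1-203, had 3908, 4199 and 11735 est_counts, against 1156, 1316 and 2142 expected counts. Both members have the same distance of 311 bases from stop to last junction.

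Oasl2-205, from the gene of an interferon-induced protein related to oligoadenylate synthetases, had 10650, 17808 and 16860 expected counts. Its share was 55.9%, 57.1% and 57.7% by expected counts and 46.2%, 47.3% and 49.3% by est_counts, so its 3 libraries lay close together on either scale. The leading coding transcript, Oasl2-201, held 40.5%, 38.6% and 32.3%. Oasl2-205 has no base that is not also in another transcript and 1 junction of its own, so its count rests on that junction and on how shared reads were split.

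Sequence of a member's own was limited in many cases. No private base was found in 1221 of the 2106, no private junction in 444, and neither in 319. Hnrnpu-206 had 8182, 14175 and 12594 expected counts and 60.8%, 63.7% and 59.1% of its gene, which encodes a nuclear RNA-binding protein. The annotation tags it as a read-through model, and it splices from the coding sequence of Hnrnpu-201 into bases that are 3′ UTR there. Its share by est_counts was 64.6%, 69.0% and 62.0%, above that by expected counts in each library.

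Ppia-201 had 6365, 17325 and 9875 expected counts and 45.6%, 54.5% and 46.8% of its gene, which encodes cyclophilin A, a peptidyl-prolyl isomerase. It was highest in replicate 2 on both scales. Over the span both models cover it differs from Ppia-202 by 5 bases at 1 splice site. Ppia-202 also starts further upstream, with 427 bases of its own, and is 1170 bases long against 746. The gene has many near-identical processed copies in the genome, and the annotation gives Ppia-201 its lowest support level (5), so its count is uncertain. Ctsh-202, from the gene of the lysosomal protease cathepsin H, had 5341, 6674 and 8559 expected counts. It held 35.8%, 34.1% and 41.3% by expected counts but 24.8%, 22.1% and 27.2% by est_counts, with no overlap between the scales.

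Guanylate-binding proteins, interferon-induced GTPases that attack vacuoles of intracellular microbes, gave 2 of the 10. Gbp6-203 held 40.0%, 48.1% and 41.0% of its gene by expected counts and 30.4%, 36.4% and 31.0% by est_counts. It is the member of the 10 with the most sequence of its own, 1709 bases. Gbp4-202 held 72.0%, 77.1% and 75.9% by expected counts and 69.5%, 74.4% and 74.8% by est_counts. Genes of this family are near-identical in part, so their counts are uncertain.

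Il4ra-205 and Lilrb4a-205 come from receptor genes. Il4ra encodes the receptor chain for interleukin-4, and Il4ra-205 held 48.1%, 40.4% and 46.8% by expected counts but 73.6%, 71.8% and 72.4% by est_counts. The 2 scales thus put it on either side of the leading coding transcript. Lilrb4a encodes an inhibitory receptor of myeloid cells and has a near-identical neighbour. Lilrb4a-205 had 5657, 14331 and 5862 expected counts and held 79.4%, 70.5% and 40.6% of its gene, lowest in replicate 3. Its est_counts gave 75.6%, 79.4% and 30.5%, also lowest in replicate 3. Ostf1-205, from a gene named for stimulation of osteoclasts, held 69.8%, 68.6% and 67.0%, and by est_counts 71.6%, 70.2% and 66.9%.

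**Figure D3:**
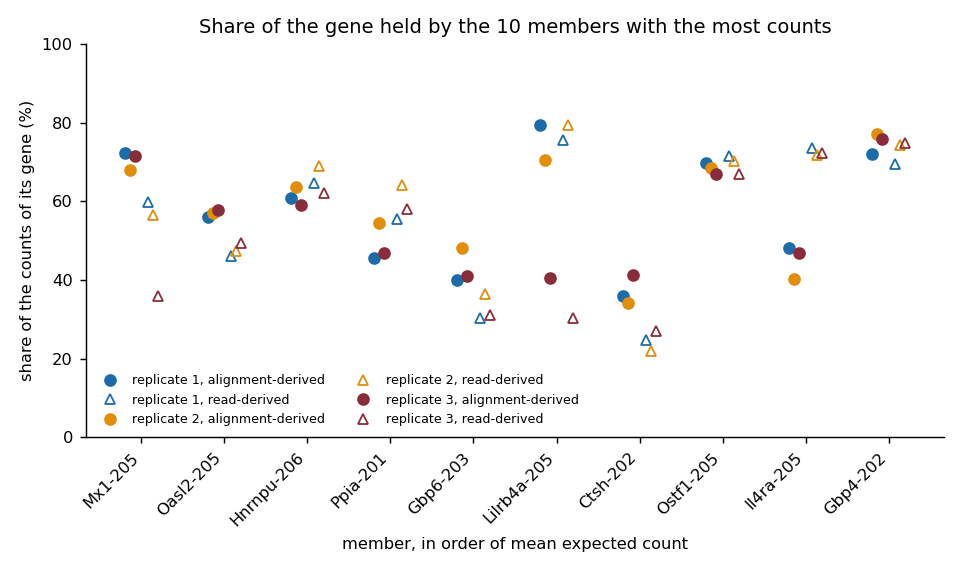
Share of the counts of its gene in percent (vertical axis) for the 10 members with the highest mean expected count (horizontal axis), with 1 point per library from alignment-derived tables (circles) and from read-derived tables (triangles). Replicate 3 is apart for Lilrb4a-205 on both scales and for Mx1-205 among the triangles, and the triangles of Il4ra-205 (71.8% to 73.6%) lie above all its circles (40.4% to 48.1%).

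The members with the highest share of their gene were of another kind. Among genes with a mean of 100 or more counts the 10 highest all held 100% of theirs on average, because each was the only transcript, or the only one with counts, of a gene model that GENCODE tags as read-through. A read-through model joins exons of neighbouring genes, and reads outside the joining junction fit the neighbours too. Gm20716-201 had 2516, 3951 and 3325 expected counts and the others had means from 114 to 559. Gm20605-201 had 37.3, 183 and 1458 expected counts and Gm20458-201 had 22.1, 128 and 341, both highest in replicate 3. In all, 40 members carried the read-through tag, and 33 of them averaged 50% or more of their gene. Among the 2066 others 79 did (3.82%).

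How many genes had a member was counted for several lists. The lists of genes used here were chosen with earlier results of these data known, and the shares below are descriptions. Of 13609 genes with a mean of 10 or more counts, 1689 had a member (12.4%), and of the 3444 among them with any annotated nonsense_mediated_decay transcript 49.0% did. For SR proteins and their relatives, which bind exons and promote their use, 10 of 15 genes had a member (66.7%), or 10 of the 14 with an annotated one (71.4%). For hnRNPs and other splicing regulators it was 25 of 42 (59.5%), or 25 of 29 (86.2%). Interferon-stimulated genes had 9 of 35, or 9 of the 10 with an annotated one (90.0%). TLR4 and NF-kB signalling had 6 of 35, or 6 of 9, and ribosomal proteins 11 of 81, or 11 of 18. Lysosome and autophagy genes had 3 of 31, or 3 of 5, and antigen presentation 0 of 16, with 1 gene annotated. The splicing lists thus stood above the others given here as a share of all their genes. As a share of the genes with an annotated transcript of the biotype, interferon-stimulated genes were highest of these lists (90.0%). The splicing lists came next (86.2% and 71.4%), above the remaining lists given here.

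The SR protein members had a structure in common. SR proteins are known to promote, in their own pre-mRNAs and each other's, the inclusion of exons that carry a stop codon, which are called poison exons. An added exon was the single difference from the leading coding transcript in 8 of the 11 SR members (72.7%), against 15.1% of all members. The stop lay outside the exons of protein_coding transcripts in 9 of 11, against 690 of all 2106 (32.8%). The difference from other members was not tested.

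Srsf3-201 holds an extra exon of 456 bases and had 475, 682 and 469 expected counts, or 20.0%, 17.5% and 11.9% of its gene. By est_counts the share was 33.0%, 29.5% and 17.4%, lowest in replicate 3 on both scales. Tra2b-206 holds an extra exon of 276 bases and had 112, 247 and 215 expected counts, 4.83%, 5.54% and 5.62% of its gene. By est_counts, 246, 633 and 515, the share was 9.93%, 13.2% and 12.1%, above that by expected counts in each library. Srsf2-204 is built otherwise: it keeps the stop of the coding transcript Srsf2-201 and removes an intron of 502 bases behind it. It had 352, 1000 and 520 expected counts and held 18.5%, 24.7% and 10.6% of its gene, lowest in replicate 3.

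Among hnRNPs the sizes ranged widely. Hnrnpdl-201 keeps the stop of Hnrnpdl-202 and adds an exon of 105 bases after it, and it had 601, 1491 and 717 expected counts, 38.6%, 37.6% and 22.2% of its gene. It was lowest in replicate 3. Hnrnpa1-203 also shares its stop with a protein_coding transcript and had 682, 1573 and 1374 expected counts, 30.9%, 30.7% and 30.4% of its gene. By est_counts its share was 28.8%, 31.4% and 23.7%, lowest in replicate 3. Tardbp, which encodes TDP-43, and Rbm39 had 5 members each, which together held 31.6%, 34.7% and 21.0% of Tardbp and 18.2%, 19.7% and 17.8% of Rbm39. Clk1, a kinase that phosphorylates SR proteins, had 1 member at 30.1%, 31.7% and 22.5% of the gene. Over the 39 members of this list the median share was 2.73%, 2.48% and 3.54%, beside 3.74%, 4.02% and 4.99% over all members.

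The 14 members from ribosomal protein genes had a median share of 3.40%, 7.43% and 10.1% in replicates 1, 2 and 3. Rpsa-206 had 2086, 4825 and 3609 expected counts and 37.2%, 38.5% and 38.8% of its gene, and by est_counts 58.8%, 60.7% and 58.4%. Rpl12-201 had 977, 1545 and 1039 expected counts but 67.6, 139 and 119.5 est_counts, below the expected count in every library. The leading coding transcript of the gene, Rpl12-203, showed the same, with 2401, 5551 and 3764 expected counts and 33.2, 75.4 and 31.1 est_counts. Ribosomal protein genes have many near-identical copies, and these counts are uncertain.

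In genes of innate signalling the 7 members were small, with a median share of 0%, 0.701% and 0.969% in replicates 1, 2 and 3. Replicate 1 had the fewest expected counts on genes, and an estimated count of 0 need not mean that a transcript was absent. Nfkb1 encodes the NF-kB subunit p105/p50. Nfkb1-207, a model of 9 exons against 23 in the leading coding transcript, leaves out an exon of 67 bases. It had 138, 546 and 185 expected counts, 4.07%, 8.61% and 3.40% of the gene, but 0 est_counts in every library. Tbk1-204 had 0, 32.0 and 74.3 expected counts and Irak3-202 had 17.6, 38.9 and 27.8. In Becn1, which starts autophagosome formation, 3 members held 51.9%, 50.1% and 50.3%, most of it from Becn1-201 (45.9%, 43.2% and 42.7%). By est_counts Becn1-201 held 54.2%, 55.2% and 43.9%, lowest in replicate 3.

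The decay machinery itself was present in the RNA. The 24 genes examined were of this pathway, its release factors, the exon junction complex, and cap-binding and poly(A)-binding proteins. All were at 1 TPM or more in every library, with means from 2.44 to 222 TPM. Their median was 10.95, beside 4.38 over all genes with a mean of 10 or more counts. The highest mean was that of Pabpc1, a poly(A)-binding protein gene, and the next that of Pnrc2 at 35.5 TPM. Upf1, the helicase at the centre of the pathway, was at 13.3, 10.7 and 16.2 TPM. Of these genes 4 had an annotated nonsense_mediated_decay transcript and 2 had a member. Smg6-202, from the gene of the endonuclease of the pathway, had 80.9, 262 and 155 expected counts, 12.7%, 21.5% and 11.0% of the gene, and 0, 0 and 9.68 est_counts. Smg5-202 had 9.22, 20.0 and 7.20 expected counts, under 1% of the gene in each library. Of 10 stress genes reported elsewhere as targets only 1 had an annotated transcript of the biotype, and it had a member, Tbl2-201, with 0.310, 13.8 and 26.0 expected counts.

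The agreement between the tables was then described member by member. A member was counted as agreeing when its est_counts lay within 2-fold of its expected count in every library, with 0.5 added to each. This was so for 1121 of 2106 members (53.2%), beside 68.2% of all 33973 transcripts with both values, 76.3% of protein_coding and 55.0% of retained_intron transcripts. Members have fewer counts than protein_coding transcripts. At like counts the shares were nearer, mostly at the lowest counts, but members stayed lower in each range. The shares were 47.4% against 55.4% at means of 10 to under 100, and 62.3% against 82.8% at 100 to under 1000. At 1000 or more they were 78.7% against 93.7%. Across the 2106 members the Pearson correlation of log2 counts was 0.776, 0.709 and 0.714 in the 3 libraries. This is across transcripts that share reads and libraries, and transcripts are not replicates. The 2 methods read the same sequencing reads, so agreement between them is no check on the reads.

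The read-derived values were more often the higher, for members as for all transcripts. In replicate 1 est_counts were over 2-fold above the expected count for 339 members and over 2-fold below it for 211, in replicate 2 for 397 and 238, and in replicate 3 for 510 and 198. Over all 33973 transcripts the numbers were 4017 and 2362, 4418 and 2825, and 4667 and 2193. The total of est_counts over genes was 1.14, 1.18 and 1.32 times that of expected counts. With est_counts scaled to the same total 1218 members agreed. By est_counts the median share of the gene was 4.15%, 4.42% and 5.96%. The uncertainty the authors deposited with each expected count was wide. The median posterior SD of a member was 28.1%, 22.6% and 21.9% of its count, beside 9.02%, 6.89% and 7.28% for protein_coding transcripts. These values were not compared at like counts. The median of the mean expected count was 50.6 for members and 264 for protein_coding transcripts.

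Some members had counts in 1 kind of table only. Under 1 est_count on average was found for 34 members (1.61%), near the 1.29% of all transcripts at the threshold, and 9 of the 34 had a mean of 100 or more expected counts. Piezo1-204, from the gene of a mechanosensitive ion channel, had 756, 1531 and 1165 expected counts and 0 est_counts in every library to the precision given. Over the span both models cover it differs from the coding transcript Piezo1-209 by a splice site moved by 10 bases. It is also a shorter model, with 40 exons against 51. The other lowest ratios were those of Myof-205, Pkd1-205, Nfkb1-207 and Svil-202, all with 0 est_counts. These too were shorter than the leading coding transcripts, with 4 exons against 54, 31 against 46, 9 against 23 and 21 against 36. Whether the length of the model bears on the ratio was not tested. In the other direction Ankfy1-202 had 348, 966 and 778 expected counts and 10076, 15929 and 15402 est_counts, or 2.78%, 5.08% and 4.19% of its gene against 77.1%, 79.7% and 77.7%. Over the span both models cover it differs from Ankfy1-206 by a splice site moved by 49 bases. Ankfy1-206 also runs further at its 3′ end, with 925 bases that no other transcript holds. Ankfy1-206 had 12160, 18060 and 17556 expected counts and 2297, 2901 and 3294 est_counts. For this gene the methods gave most of the counts to different transcripts in every library. Ifi209-202, Mfsd11-209, Eps15-208 and Asah1-202 also had est_counts 8.59 to 21.7 times their expected counts. Outside the members, 689 nonsense_mediated_decay transcripts had a mean of 10 or more est_counts, and 1996 of the members did (94.8%).

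**Figure D4:**
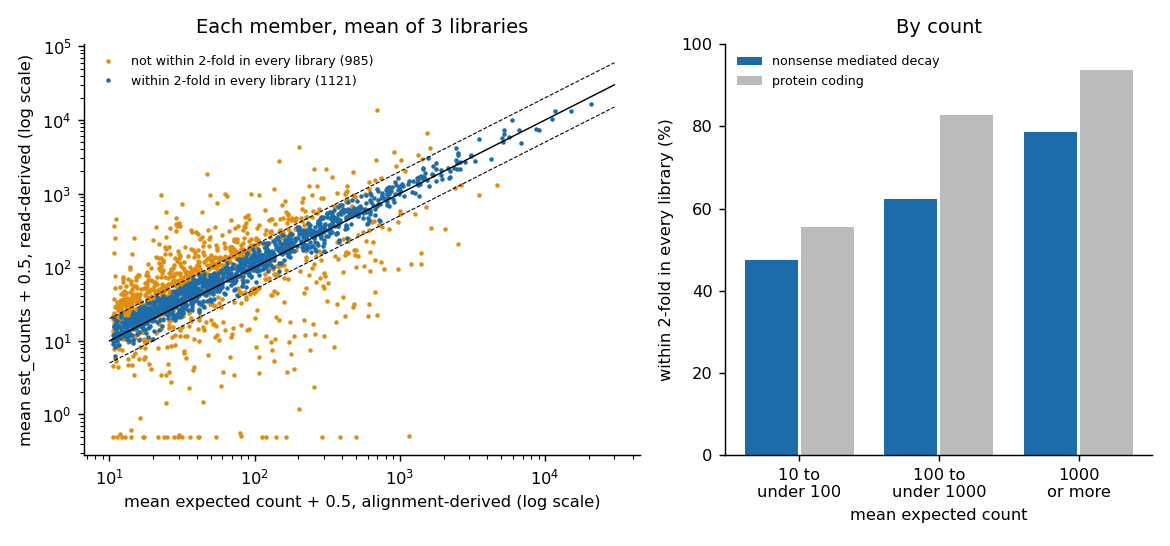
Left, mean est_counts against mean expected count of each of the 2106 members, 0.5 added, both axes logarithmic, with lines at equality (solid) and at 2-fold (dashed). Right, percent of transcripts within 2-fold in every library, by mean expected count, for members and protein_coding transcripts. The percent of members within 2-fold was 47.4% at the lowest counts and 78.7% at the highest.

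Differences between the libraries were tested for every transcript at the threshold, with Cochran's Q on scaled counts (2 degrees of freedom, Benjamini-Hochberg adjusted p of 0.05 over all transcripts tested, and a ratio of highest to lowest of 2 or more). The test covers counting and assignment error and compares these libraries and no condition. In level 402 of 2106 members differed (19.1%), beside 26.8% of all transcripts, 70.4% of retained_intron and 12.3% of protein_coding transcripts. In share of the gene 316 of 2088 members tested differed (15.1%), beside 21.0% of all transcripts, 67.2% of retained_intron and 7.64% of protein_coding transcripts. In both measures 281 members differed. The order against the background depended on settings. With a mean of 50 or more counts, 20.2% of members and 16.4% of all transcripts differed in level, and with counting error alone 48.1% and 41.7%.

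Replicate 3 was the highest library in most of these cases. It was highest in level for 253 of the 402 members, or 12.0% of those tested, beside 21.0% of all transcripts tested. In share it was highest for 213 of the 316, or 10.2% of those tested, beside 17.9% of all transcripts. Replicates 1 and 2 were highest in level for 65 and 84 members. Without replicate 3, 93 of 1932 members differed in level (4.81%, beside 5.05% of all transcripts) and 37 of 1916 in share (1.93%, beside 1.44%). Malat1 and Neat1 were also highest in replicate 3, as given above, and their part in these counts was not tested.

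The counts also varied with the kind of splicing, a difference between classes that was not tested. Of all transcripts tested 26.8% differed in level, and 21.0% did so with replicate 3 highest. Where the single difference from the coding transcript was a kept intron, 13 of 30 members differed in level, 12 of them highest in replicate 3. Where exons were left out it was 46 of 373 (12.3%), 17 of them highest in replicate 3, and where an intron was removed from within an exon 9 of 46, none of them highest in replicate 3. Among SR protein members 4 of 11 differed in level and 5 in share, beside 26.8% and 21.0% of all transcripts tested. Srek1-206 had 9.68, 4.85 and 110 expected counts and Srrm2-203 had 6.80, 10.4 and 56.1, both highest in replicate 3. Srsf2-204 instead differed in share with replicate 3 lowest, as did Tardbp-208, at 11.6%, 10.3% and 4.96% of its gene. Tardbp-208 was chosen for mention after its values were seen.

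**Figure D5:**
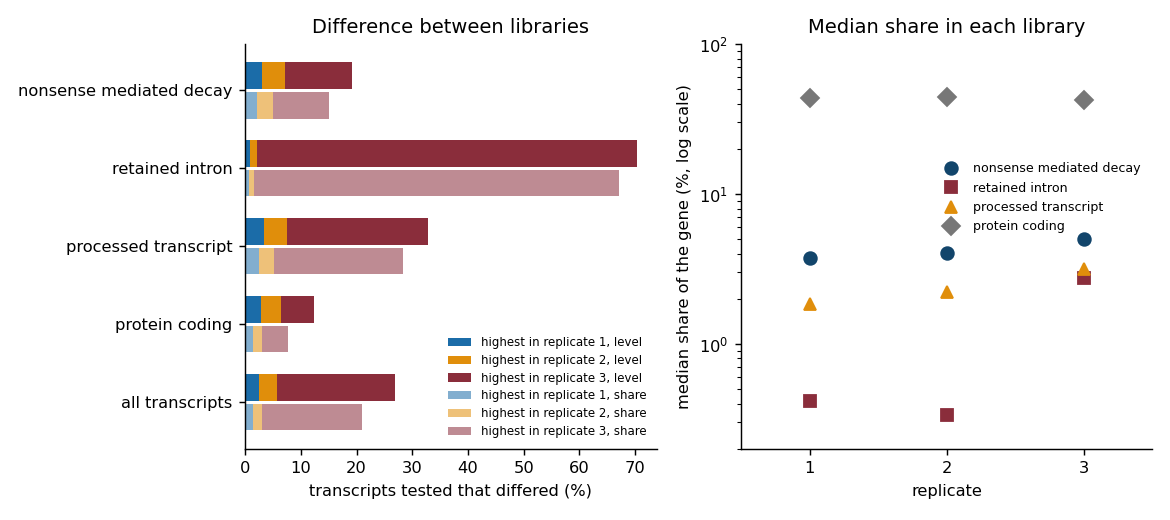
Left, percent of transcripts tested that differed between the libraries in level (full colour) and in share of the gene (pale), by biotype, split by the library that was highest. Right, median share of the gene in percent (logarithmic axis) in each library by biotype. Of the members 19.1% differed in level, against 70.4% of retained_intron transcripts, and their median share was 3.74%, 4.02% and 4.99%.

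Among members with a mean of 50 or more expected counts, the largest differences were those of members with no count in at least 1 library. Zup1-204 had 199, 169 and 0 expected counts and 158, 106 and 0 est_counts, so both tables put it at 0 in replicate 3 alone. Tapt1-208 had 27.9, 0 and 197.5 expected counts and 18.1, 0 and 107 est_counts, again alike. For others the tables parted. Cct8-209, from a gene of the chaperonin that folds actin and tubulin, had 192, 0 and 0 expected counts but 701, 1203 and 908 est_counts. Rit1-204 had 0, 331 and 355.5 expected counts and 154, 502 and 513 est_counts, and Ric1-203 had 0, 307 and 229 against 85.8, 278 and 402. Dop1b-202 had 112, 306 and 0 expected counts and 20.9, 40.6 and 0 est_counts. A count of 0 in an estimated table can be a failed estimate, and no fold is given for these members.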

How the data were processed

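Total RNA of the cytosolic fraction was sequenced in 3 libraries of 1 group. Per the deposited README, the annotation was M21 on mm10. One set of transcript values came from alignments, together with gene values, and the other from the reads themselves. The programs behind either set are not stated there. Strandedness is not stated for the libraries, so reads of overlapping and antisense genes may be mixed. The deposited expected counts, and the est_counts of the read-derived tables, are estimated counts per transcript that the authors made by splitting shared reads, per the file headers. The deposited TPM values were normalised by the authors for transcript length and for the total of all rows. The deposited posterior SD of each count was used as its assignment error, while the deposited bounds of TPM intervals entered no value given here, since their level is not stated.

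Rows that name no gene (26345 of 168207, almost all of their counts on the phiX spike-in) held 0.418%, 0.248% and 0.165% of expected counts and were left out. Depth limits what a transcript at 0 could hold to 0.104, 0.0565 and 0.0641 CPM in replicates 1, 2 and 3, which is what 3 counts amount to, for counting error only. Biotypes came from the read-derived tables (95 transcripts missing there, none of them members, took theirs from GENCODE M21). Columns of per-sample values left unused for lack of a sample numbered 0.

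A share is a transcript's expected count over that of its gene. For tests between libraries, expected counts were rounded to obtain TMM factors (edgeR 4.0.16; DESeq2 1.42.0 size factors as an alternative). Each transcript's level, and its share of the gene, was tested by Cochran's Q with counting or binomial variance plus the squared posterior SD, adjusted by Benjamini-Hochberg over all transcripts tested, with a ratio of 2 or more required after adding 0.5. The procedure was tested on simulated data. Stop positions, exon junctions and bases private to a transcript came from GENCODE M21 on GRCm38.

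The members, gene lists and tests were chosen with earlier results of these data known. Named members are the 10 with the most counts, the 10 with the highest shares in genes with a mean of 100 or more counts, the 5 highest and 5 lowest ratios of est_counts to expected count at a mean of 100 or more, the top 3 of each list, the 5 largest differences between libraries in level and in share at a mean of 50 or more, and the 2 transcripts on each side of the threshold. One member named by this rule is not reported here. Other names were added after their values were seen: Mx1-203's comparison by library, Tmem234, Tardbp, Rbm39, Clk1, Srek1-206, Srrm2-203, Upf1, Pabpc1, Pnrc2 and the leading coding transcripts. With 1 group there was no comparison of conditions.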

Additional observations from a re-analysis of the deposited data

How the results depend on the processing

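The number of members was 2639 at a threshold of 5 and 1647 at 20, and it ranged from 1428 to 2685 over the alternatives run (2106 as reported), and from 1932 to 2265 with 1 replicate left out. The members' share of gene counts, 1.18%, was 0.483% by TPM, 1.33% with the total over protein-coding genes, 1.61% with both, and 1.12% without read-through transcripts. The median share of the gene, 4.25%, was 6.13% by TPM and 6.31% at a threshold of 20, and by read-derived tpm it was 6.45% in place of 4.84%. A limit of 1.5-fold between tables kept 679 members in place of 1121. A mean of 50 or more counts left 214 members differing in level and 151 in share, from fewer transcripts tested, and counting error alone gave 1013 and 960, from the smaller variance. With 1 replicate left out the counts were 93 to 355 in level and 37 to 284 in share, lowest without replicate 3. The cause of the other changes was not tested. Analyses without read-through transcripts, with 2 posterior SD subtracted, with est_counts scaled, with shares of named members by est_counts, and with TPM totals over protein-coding genes were added after the data had been seen. For named members, the share moved by more than the SD between replicates in 35 of 55 by est_counts, 31 of 55 by TPM and 5 of 55 by posterior mean count. Members with few counts are limited by depth and by the splitting of shared reads, and differences of a few counts were not detectable. No paired analysis was possible because there is 1 group.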
